A study of Mus musculus with 12 samples.

Results

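Synaptic vesicle and SNARE genes encode the proteins that dock, prime and fuse transmitter-filled vesicles, together with relatives that serve membrane traffic in every cell. They were followed in the input RNA-seq libraries of neurospheres, floating cultures of neural stem and progenitor cells (NSPCs). The members were the genes of the count tables whose symbols belong to the synaptotagmin, syntaxin, VAMP, synapsin, syntaxin-binding protein, SV2, complexin and Rim families, plus 12 genes named singly (Snap23, Snap25, Snap29, Snap47, Syp, Sypl, Syngr1, Syngr2, Syngr3, Nsf, Napa and Napb). The rule found 71 members among 24525 genes, and it used names only, no measured value. Of these, 60 passed edgeR's filter on low counts, which left 13112 genes to test, and the other 11 were too low to test.

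The study compared wild-type with Ythdf2-/- C57BL/6 mice to ask what loss of YTHDF2, a reader protein that directs m6A-marked mRNA to decay, does to NSPCs. In the targeted allele the first exon of Ythdf2 lay between LoxP sites and was removed through the germline by a ubiquitously active Cre, so every cell of the -/- embryos lacked it. Neurospheres came from the forebrain at E14.5 and were grown at passage 1 with 20 ng/ml EGF and 10 ng/ml bFGF, and each genotype had 3 biological replicates. The labels name no differentiation step. The libraries analysed were the fragmented mRNA kept back before m6A immunoprecipitation, and the 6 m6A-IP samples were not analysed here.

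A vesicle fuses when a VAMP on its membrane zips together with a syntaxin and a SNAP-25 relative on the target membrane. Syntaxin-binding proteins and Rims prepare this complex, complexins and calcium-binding synaptotagmins control the moment of release, and NSF with its SNAP adaptors takes the spent complex apart. Synapsins, SV2 proteins, synaptophysins and synaptogyrins sit on the vesicle itself. In many non-neuronal cells the transcriptional repressor REST keeps part of the neuronal set silent through a motif called RE1.

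RefSeq promoters (250 bases before to 50 after the start of a curated transcript, GRCm38.p6) were searched on both strands for this and other motifs. Sequence outside these windows, such as introns and more distant DNA, was not searched. The stretches below are shown for the members that held the rarer motifs or whose values are described most fully. Promoters were at hand for 54 of the 71 members and for 27025 genes in all, and the motif letters are in capitals. All 70 windows of the members began from the start of a curated transcript, and gene extents given below also span predicted transcripts, some of which start further upstream, as for Syt9 and Napa.
Syn1, left part of RE1, chrX:20921131-20921160, minus strand: cactgtcggaTTCAGCACCgcggtcagagc
Syn1, CRE, chrX:20921059-20921088, minus strand: caaaggctgacTGACGTCActcactagccc
Napa, CRE, chr7:16098551-16098580, plus strand: cacgtggggtggcaggcctgggTGACGTCA
Stxbp3, CRE, chr3:108840592-108840621, minus strand: gttgatgcgcgTGACGTCAcctgagggcgc
Syt9, GC box, chr7:107370712-107370741, plus strand: gccgcgagtagcGGGCGGagcgcggagagg
Syt1, GC box, chr10:109010976-109011005, minus strand: gccggggccgggagatgatGGGCGGccgcc
The left part of RE1, TTCAGCACC, occurred in 1 of the 54 members, Syn1, and in 0.433% of all genes. The right part, GGACAGC, occurred in 3 members and in 7.59% of all genes. The cAMP response element TGACGTCA occurred in 3 members, Syn1, Napa and Stxbp3, and in 2.03% of all genes. The GC box GGGCGG, the letters bound by Sp1, occurred in 40 members (74.1%) and in 38.2% of all genes, and the E-box CAGATG, a motif of proneural factors, occurred in 5 members (9.26%) and in 19.2% of all genes. No motif searched contains the letters of another, and a match is a description of the sequence only. Rims2, Rims4, Snap25, Syn3, Syngr3, Syt4, Syt7, Syt12, Syt13, Syt17, Syt5, Vamp2, Vamp3, Vamp7 and Cplx4 were among the members not searched.

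The libraries held 11029827 to 13185778 counted reads, of which 0.286% to 0.364% fell on the members, and each library had a read for 68 to 70 of them. Ythdf2 itself (chromosome 4, 132184916 to 132212256, minus strand, 5 exons) had 840, 961 and 999 reads in wild type and 137, 198 and 138 in Ythdf2-/-, or 15.8% of the wild-type CPM, and its log2 fold change was -2.66 (SE 0.18, edgeR adjusted p = 0.0547). Wild-type library 3 stood apart from the rest, at 91.0 on a principal component that held 74.2% of the variance while the other 5 libraries lay between -30.6 and -6.04. Progenitor markers were present in every library: Sox2 ran from 316 to 551 CPM and Nes, lowest in wild-type library 3, from 264 to 1212 CPM. The microglial and endothelial marker lists summed to at most 1.55 and 2.21 CPM in any library. Levels below are TMM-scaled CPM, a gene's reads scaled to library size, listed for wild-type replicates 1, 2 and 3 and then for Ythdf2-/- replicates 1, 2 and 3, RPKM is CPM per kilobase of the gene length in the deposited tables, and a fold change above 0 on the log2 scale means higher in Ythdf2-/-. In bulk RNA, fewer cells of a type and less RNA per cell cannot be told apart.

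Most of the strongly expressed members were relatives that serve general membrane traffic. By mean RPKM, 26 members were at 10 or more, 25 between 1 and 10, and 20 under 1. Of the 24 members with uses in all cells, 19 were at 10 RPKM or more, against 5 of the 27 members known mainly for neuronal release (20 members were in neither group). Syt11, a synaptotagmin that does not bind calcium and was in neither group, was the highest member of all at 181 RPKM. It took 85.9% to 87.0% of the summed synaptotagmin RPKM in the 6 libraries. Vamp3, the VAMP of recycling endosomes, followed at 84.3 RPKM and Stx12, an endosomal syntaxin, at 77.2 RPKM. Among the neuronal release members Vamp2 (49.2 RPKM), Cplx2 (34.6 RPKM) and Syn2 (20.6 RPKM) led, and Sv2a was at 10.96 RPKM.

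**Figure D1:**
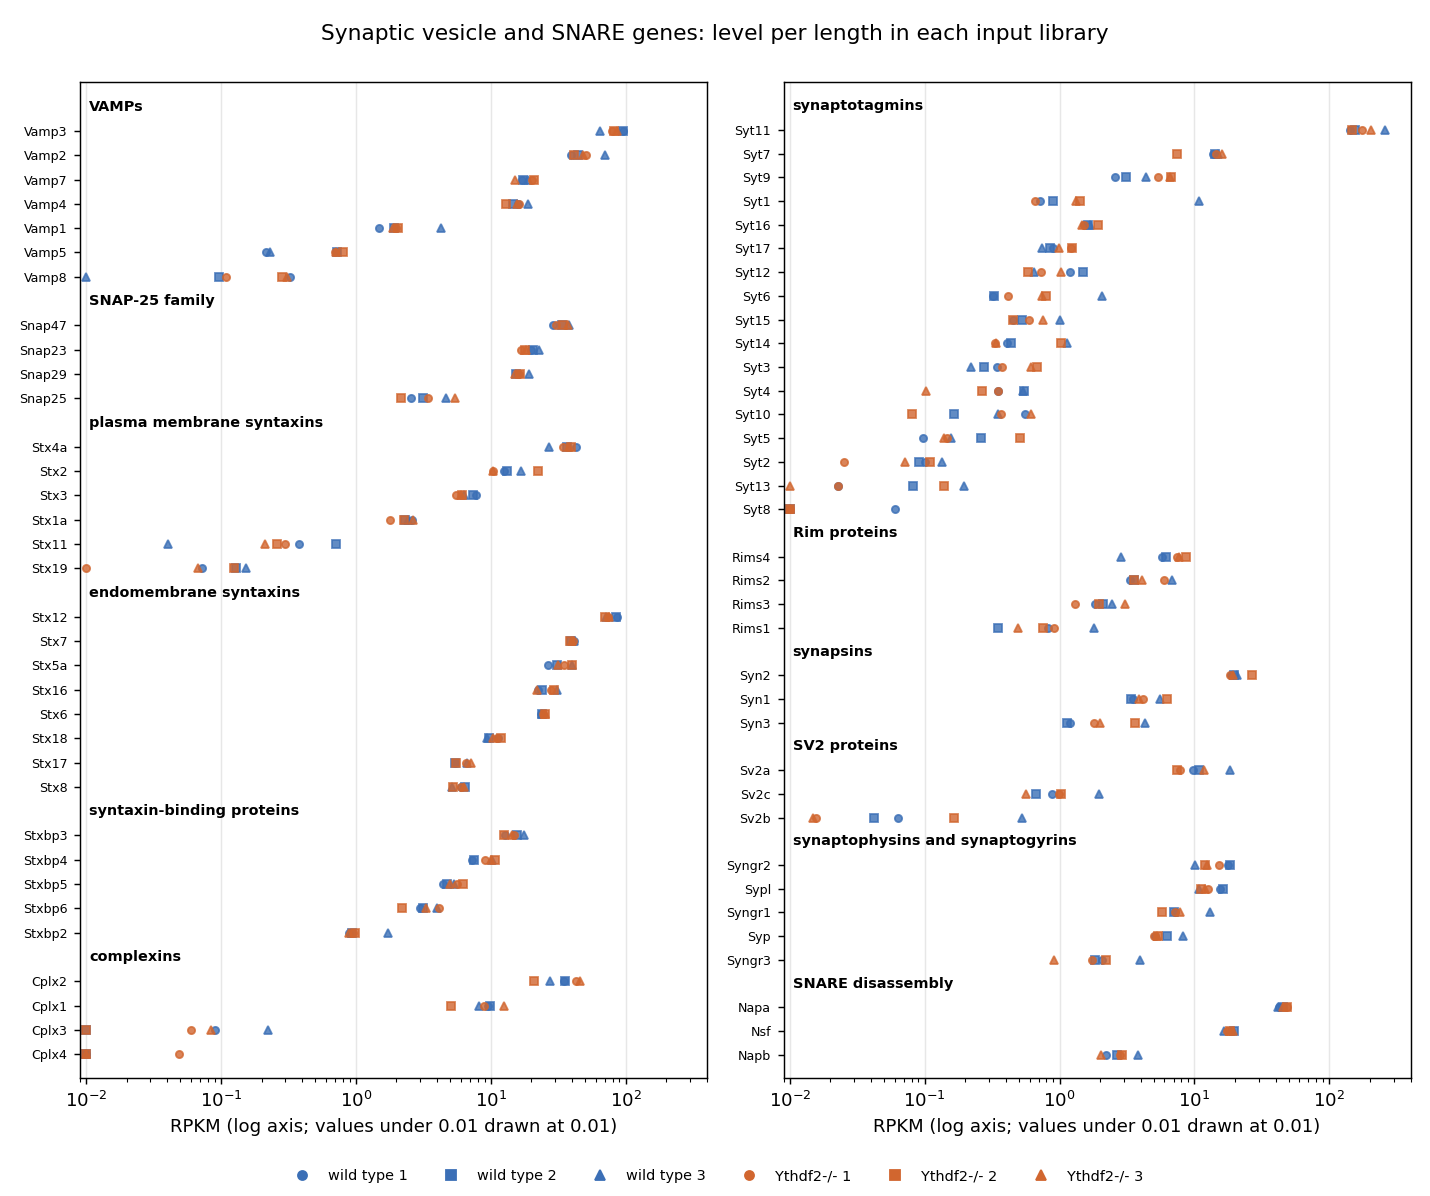
Each row is 1 of 69 members, grouped by class, and each symbol is its RPKM in 1 input library on a log axis (blue, wild type; orange, Ythdf2-/-; circle, square and triangle, replicates 1, 2 and 3). Syt11, Vamp3 and Stx12 lie at the top of their classes, and the blue triangle of wild-type library 3 lies to the right of the other symbols for Syt1, Vamp1 and Vamp2.

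No member passed an adjusted p of 0.05 in edgeR's quasi-likelihood test, where 0% of all genes tested (0 of 13112) passed, and the smallest adjusted p of a member was 0.999. At an unadjusted p under 0.05, 2 of 60 members were higher in Ythdf2-/- (Syt9 and Syt3) and 0 were lower, beside 1.81% of all genes tested that were higher and 1.82% that were lower. DESeq2 called 0.236% of all genes at an adjusted p under 0.05 and no member. The median log2 fold change of the 60 members was -0.05, beside -0.01 over all genes tested, and without wild-type library 3 it was 0.09. With all libraries 25 members were above and 35 below 0 (58.3% below, beside 51.9% of all genes). For 21 of the 60 (35.0%, beside 31.0% of all genes) the 95% interval of the fold change stayed within 1.5-fold in either direction, and for the other members the interval reached beyond 1.5-fold in at least 1 direction.

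**Figure D2:**
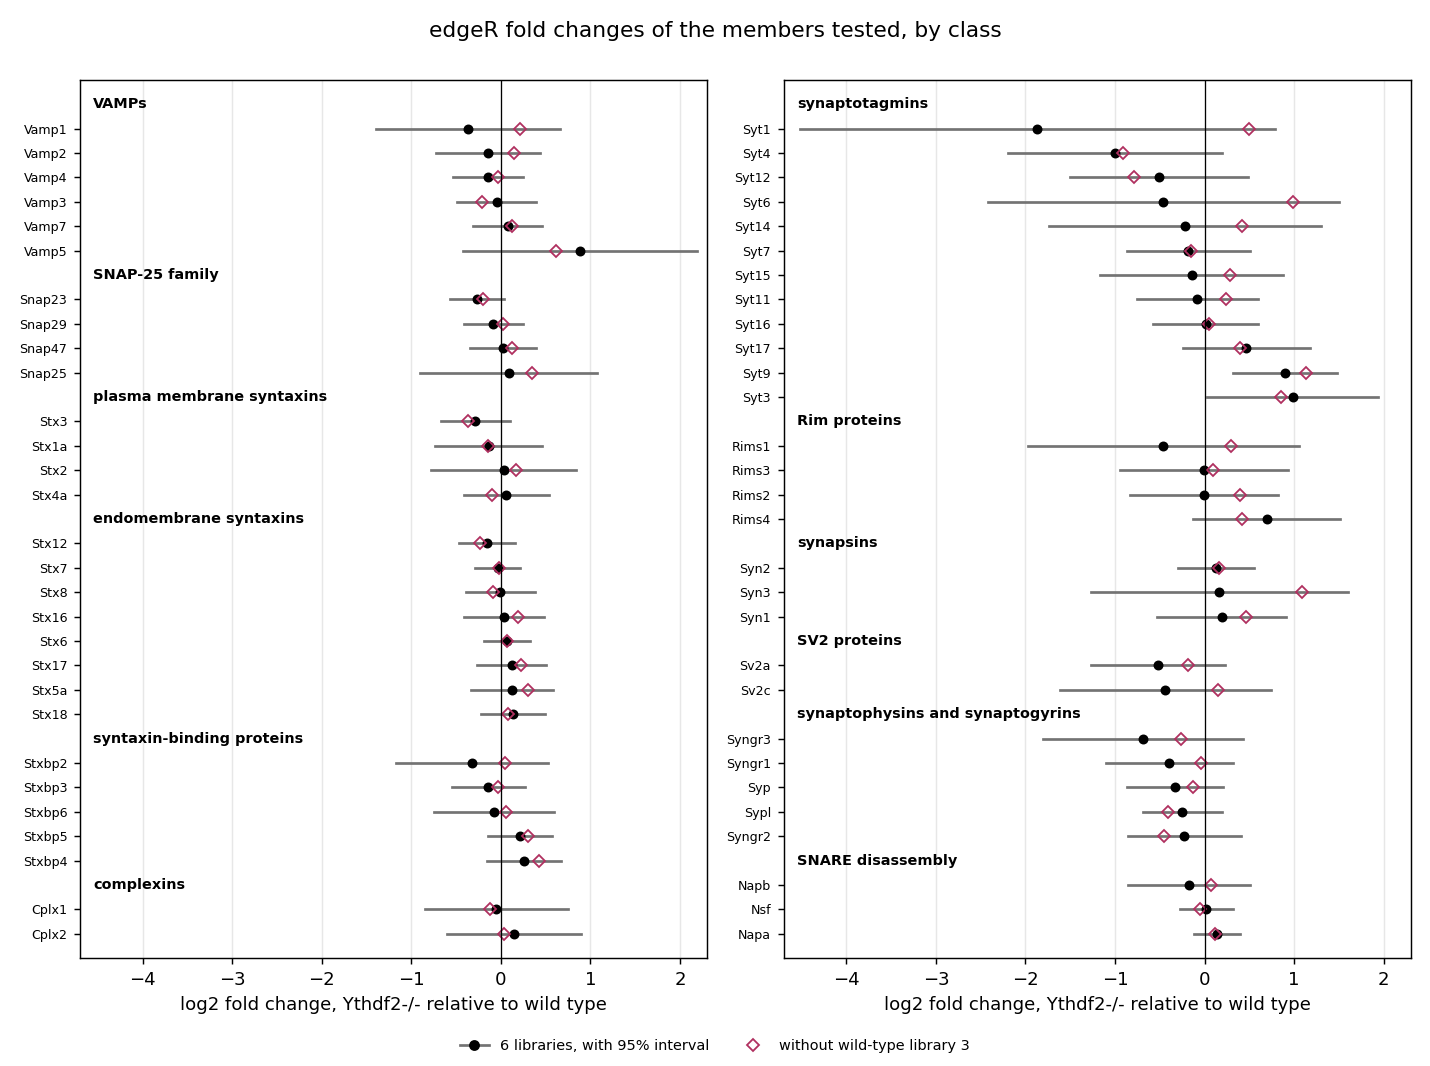
Of the members tested, 58 are grouped by class, with the edgeR log2 fold change (black point) and its 95% interval (line) on the horizontal axis and, as an open diamond, the value without wild-type library 3. Of the intervals drawn, those of Syt9 and Syt3 lie above 0, and the diamond of Syt1 lies on the other side of 0 from its point.

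Syt9, a calcium sensor for fast release in limbic and striatal neurons and for dense-core vesicles in endocrine cells, was the member that differed most clearly. It lies on chromosome 7 from 107370349 to 107548656 on the plus strand, with 7 exons. Its level was 9.84, 11.8 and 16.6 CPM in wild type and 20.6, 25.5 and 25.2 CPM in Ythdf2-/-. All 3 Ythdf2-/- libraries were above all 3 wild-type libraries. The means were 12.7 ± 3.45 CPM and 23.8 ± 2.71 CPM (SD, n = 3), and the log2 fold change was 0.90 (SE 0.24, 95% interval 0.32 to 1.48, edgeR adjusted p = 0.999). Without wild-type library 3 it was 1.13 (SE 0.17, edgeR adjusted p = 0.151), and over the 16 alternatives the value ranged from 0.75 to 1.13, with adjusted p between 0.0238 and 1.0.

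Syt3, a synaptotagmin with high calcium affinity found mainly on the plasma membrane, was also higher, but on few reads. It had 10, 9 and 6 reads in wild type and 11, 23 and 19 in Ythdf2-/-, or 0.856, 0.687 and 0.549 CPM against 0.938, 1.70 and 1.53 CPM. The groups did not overlap, with Ythdf2-/- library 1 only just above wild-type library 1. The log2 fold change was 0.99 (SE 0.40, edgeR adjusted p = 0.999), and without wild-type library 3 it was 0.85 and did not pass an unadjusted p of 0.05. An exon of Syt3 overlaps 85 bases of a gene on the opposite strand, and the strand setting of the counting is not given in the sources used here.

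The 3 libraries of one genotype lay wholly to one side of the other for 9 of the 60 members tested: 6 were higher in Ythdf2-/- (10.0%), where 5.24% of all genes tested were higher, and 3 were lower (5.0%), where 4.92% were lower. Beside Syt9 and Syt3, the higher ones were Rims4, Syt17, Napa and Stx6. Rims4, a short Rim that lacks the Rab3- and Munc13-binding part, was at 4.79, 5.11 and 2.38 CPM in wild type and 6.22, 7.26 and 6.44 CPM in Ythdf2-/- (log2 fold change 0.69, SE 0.34, edgeR adjusted p = 0.999). Wild-type library 3 was the lowest for Rims4, and without it the value was 0.42. Syt17, a synaptotagmin relative of the secretory pathway, was at 1.45, 1.37 and 1.19 CPM against 1.96, 1.999 and 1.61 CPM. Napa, the general SNAP adaptor of NSF, was at 99.2, 105 and 97.1 CPM against 113, 113 and 106 CPM, and Stx6, a syntaxin of the trans-Golgi and endosomes, was at 58.0, 58.7 and 58.9 CPM against 59.8, 62.2 and 62.0 CPM. For both of these the gap was small: their log2 fold changes were 0.14 (95% interval -0.12 to 0.40) and 0.07 (-0.19 to 0.32).

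The 3 lower members were Snap23, Stx3 and Syt4. Snap23, the SNAP-25 relative used outside neurons, was at 43.1, 44.6 and 49.3 CPM in wild type and 36.0, 39.0 and 39.3 CPM in Ythdf2-/- (log2 fold change -0.26, 95% interval -0.56 to 0.04). Stx3, a plasma membrane syntaxin of apical and dendritic delivery, was at 23.1, 22.1 and 18.8 CPM against 16.4, 18.1 and 18.0 CPM (log2 fold change -0.28). Stx3 shares 2878 exonic bases with a predicted gene on the opposite strand, so its count is uncertain. Syt4, a synaptotagmin of dense-core vesicles, was at 1.37, 2.14 and 2.11 CPM against 1.36, 1.04 and 0.402 CPM, and its highest Ythdf2-/- library and its lowest wild-type library each had 16 reads. None of the 3 passed the test at an unadjusted p of 0.05.

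**Figure D3:**
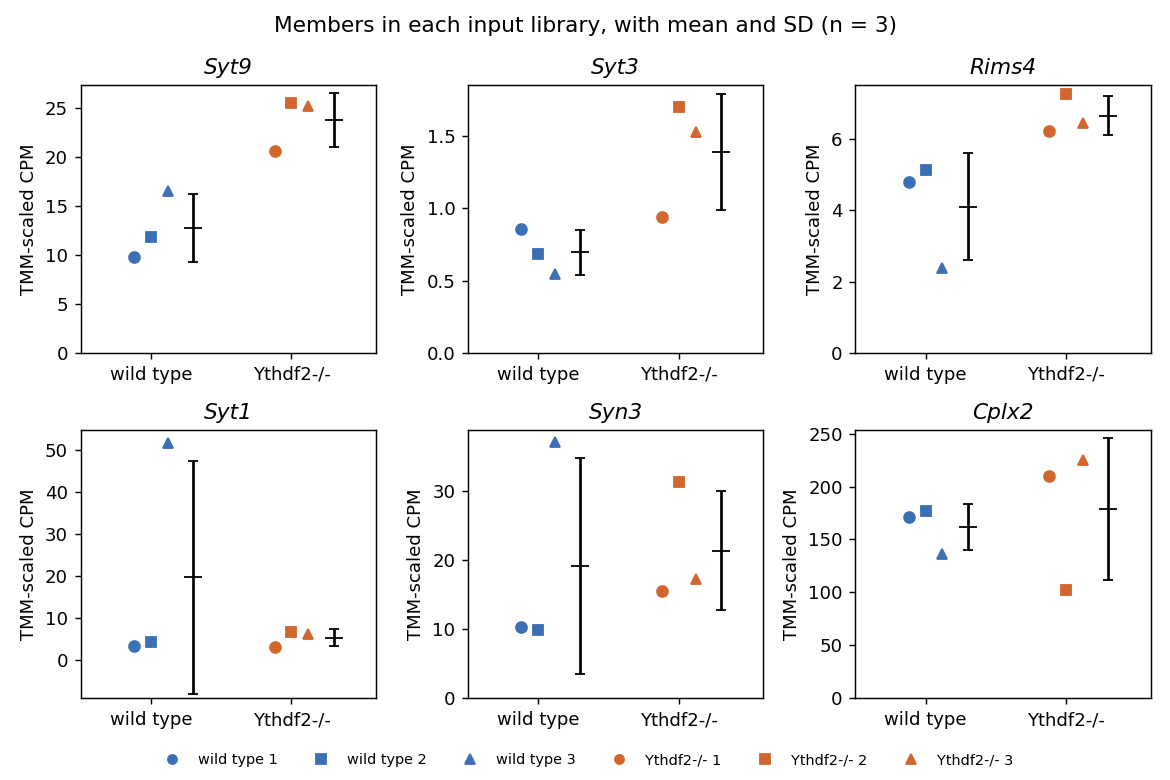
Each panel gives the TMM-scaled CPM of 1 member in the 3 wild-type (blue) and 3 Ythdf2-/- (orange) libraries, with the mean and SD beside them (n = 3). The groups are apart for Syt9, Syt3 and Rims4, while wild-type library 3 alone carries the high values of Syt1 in its group and Ythdf2-/- library 2 is the lowest for Cplx2.

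Vamp2, the VAMP of synaptic vesicles, was at 85.5, 96.8 and 153 CPM in wild type and 110, 89.0 and 105 CPM in Ythdf2-/-, and Vamp3 was at 204, 203 and 137 CPM against 169, 175 and 183 CPM. Wild-type library 3 was the highest for Vamp2 and the lowest for Vamp3, and the other 5 libraries lay between 85.5 and 110 CPM and between 169 and 204 CPM. As a share of the summed RPKM of this pair, Vamp2 took 52.1% in that library and 29.1% to 38.9% in the others. Stx1a, a neuronal partner of Vamp2 at the plasma membrane, stayed between 3.92 and 5.79 CPM in all 6 libraries.

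Snap25 completes the neuronal complex and was low, at 5.48, 6.72 and 9.79 CPM in wild type and 7.25, 4.59 and 11.5 CPM in Ythdf2-/-. Its groups overlapped fully, and it took 3.06% to 7.11% of the summed RPKM of its family. Snap47, a SNAP-25 relative of intracellular membranes, was the highest of that family at 33.8 RPKM, with 53.1, 61.7 and 69.6 CPM against 56.3, 62.6 and 68.9 CPM. Among plasma membrane syntaxins Stx4a, which serves regulated insertion of membrane proteins in most cells, led at 36.4 RPKM, with 58.6, 49.9 and 36.6 CPM against 46.6, 53.5 and 51.6 CPM. Stx2, a syntaxin of epithelial cells that also acts late in cell division, was at 35.3, 37.4 and 47.2 CPM against 29.7, 63.2 and 29.6 CPM. Ythdf2-/- library 2 was 2.13 times the mean of the other Ythdf2-/- libraries for Stx2, so the genotype means differed by little (log2 fold change 0.03, 95% interval -0.78 to 0.84).

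The endomembrane syntaxins, which serve the endoplasmic reticulum, Golgi and endosomes, were the steadiest class. For all 8 the 95% interval of the fold change stayed within 1.5-fold, and their log2 fold changes ran from -0.15 to 0.14. Stx7, a late endosomal syntaxin, was at 103, 99.1 and 104 CPM in wild type and 102, 97.0 and 100 CPM in Ythdf2-/-, a range of 1.07-fold over the 6 libraries. Stx12 was at 202, 197 and 166 CPM against 173, 163 and 173 CPM, with wild-type library 3 down among the Ythdf2-/- values (log2 fold change -0.15, SE 0.13). Of the 23 general traffic members tested, 18 had an interval within 1.5-fold, against 2 of the 23 neuronal release members tested and 31.0% of all genes. The general traffic members also had the higher levels, and the part of level in this contrast was not tested.

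None of the 6 syntaxin-binding proteins and none of the 3 disassembly factors reached an unadjusted p of 0.05, and 3 and 2 of them had a 95% interval within 1.5-fold. Stxbp3 (Munc18c), the partner of Stx4a, was at 30.6, 37.5 and 42.3 CPM in wild type and 35.6, 30.0 and 34.6 CPM in Ythdf2-/-. The genotypes overlapped, with wild-type library 3 the highest of the 6. Stxbp4, whose product also binds syntaxin-4, was at 43.7, 45.03 and 60.95 CPM against 54.7, 64.3 and 60.1 CPM (log2 fold change 0.26, 95% interval -0.15 to 0.67). Nsf, the ATPase that separates SNARE complexes, was at 70.3, 73.4 and 62.1 CPM against 65.9, 69.6 and 72.8 CPM (log2 fold change 0.02, 95% interval -0.28 to 0.31). Napb, the neuronal SNAP adaptor, took 4.25% to 8.35% of the summed RPKM of Napa and Napb, with the highest share in wild-type library 3, and its log2 fold change was -0.17 (95% interval -0.85 to 0.51) and 0.07 without that library.

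Both complexins tested and Syt7 had their lowest values in Ythdf2-/- library 2. Cplx2, the main complexin here with 76.6% to 82.5% of the class RPKM, was at 172, 177 and 136 CPM in wild type and 210, 102 and 225 CPM in Ythdf2-/-. Cplx1 was at 20.8, 21.7 and 18.0 CPM against 19.6, 11.2 and 27.7 CPM, and Syt7, a slow calcium sensor that also serves lysosome exocytosis, was at 89.3, 91.7 and 96.3 CPM against 93.5, 47.8 and 103 CPM. In that library the 3 genes were at 0.470, 0.473 and 0.487 of the mean of the other Ythdf2-/- libraries. Over all 60 members tested, Ythdf2-/- library 2 was the lowest of the 6 libraries for 12 (20.0%, beside 14.3% of all genes). It was the highest for 15 (25.0%, beside 15.6%). The astrocyte marker list (Gfap, Aqp4, S100b, Aldoc, Slc1a2, Slc1a3, Aldh1l1, Gja1 and Apoe) was lowest in the same library, with 6 of its 9 genes at their minimum there, Aldh1l1 at its maximum (481 CPM) and a sum of 4479 CPM against 11527 and 7906 CPM in Ythdf2-/- libraries 1 and 3 and 6476 to 14122 CPM in wild type. The progenitor marker list had its highest sum there (7041 CPM), with 3 of its 10 genes (Nes, Vim and Notch1) at their maximum. Hes1, of the same list, was at its minimum there (16.7 CPM). The part of the astrocyte and progenitor genes in these values was not tested.

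Syt1, the calcium sensor of fast transmitter release in forebrain neurons, showed the largest spread of any member tested. It was at 3.42, 4.27 and 51.8 CPM in wild type and 3.16, 6.74 and 6.36 CPM in Ythdf2-/-. Wild-type library 3 held 566 reads, while the other 5 libraries held 37 to 91 and overlapped between genotypes. The log2 fold change was -1.87 (SE 1.09, edgeR adjusted p = 0.999) and turned to 0.49 (SE 0.38) without that library. Sv2b, a vesicle protein of glutamatergic neurons that was too low to test, had 4, 3 and 31 reads in wild type and 1, 12 and 1 in Ythdf2-/-, and its 31 reads were in the same library. Syt11 was also highest there, at 652, 712 and 1183 CPM in wild type and 804, 674 and 935 CPM in Ythdf2-/-, and its groups overlapped.

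The SV2 proteins and Rims2 were likewise highest in wild-type library 3. Sv2a, the widely expressed SV2, was at 37.9, 42.3 and 71.5 CPM in wild type and 30.4, 29.1 and 46.3 CPM in Ythdf2-/- (log2 fold change -0.52, 95% interval -1.27 to 0.23, and -0.18 without wild-type library 3). Sv2c was at 3.77, 2.82 and 8.33 CPM against 4.18, 4.37 and 2.41 CPM. For both, wild-type library 3 was the highest of the 6 and the genotypes overlapped. Rims2, an active zone scaffold, was at 22.7, 24.7 and 46.6 CPM against 40.7, 24.6 and 28.0 CPM, and its log2 fold change was -0.01 (95% interval -0.84 to 0.82). The gene length listed for Rims4 was 832 bases, against 5247 for its longest RefSeq transcript, so the RPKM that ranks Rims4 (6.45) above Rims2 (4.55) is uncertain. Rims1, Rims3, Syt2, Syt6 and Vamp4 also had a longest transcript over 2 times the listed length. With the longest transcript as the length, 25 members were at 10 RPKM or more, 24 between 1 and 10 and 22 under 1, with Vamp4 at 7.59 RPKM and Rims3 at 0.317 RPKM.

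The neuronal release and general traffic groups were drawn up with earlier results of these data known, so their contrast is a description only. Over the 23 neuronal release members tested, wild-type library 3 was the highest of the 6 libraries for 14 (60.9%). It was the highest for 9 of 23 general traffic members (39.1%) and for 33.8% of all genes tested. The median log2 ratio of that library to the mean of wild-type libraries 1 and 2 was 0.69 for the neuronal release members, 0.04 for the general traffic members and 0.01 for all genes. The median log2 fold change of the neuronal release members was -0.14 with it and 0.15 without it, and that of the general traffic members was -0.00 and -0.02. In the same library the young neuron markers summed to 2710 CPM (1553 to 1966 CPM in the other 5), with 10 of 14 tested at their highest and Dcx at 315 CPM against 8.36 to 13.1 CPM, while Gap43 was at its lowest, 55.8 CPM against 74.1 to 176 CPM. The oligodendrocyte lineage markers summed to 4374 CPM there (1739 to 2169 CPM elsewhere), with 6 of 9 tested at their highest and Mbp at 573 CPM against 1.21 to 8.85 CPM, while 3 (Olig1, Olig2 and Cspg4) were at their lowest, Olig1 at 547 CPM against 874 to 1250 CPM. The astrocyte markers summed to 14122 CPM (4479 to 11527 CPM elsewhere), with 4 of 9 at their highest and Gfap at 3046 CPM against 5.55 to 625 CPM. The mesenchymal markers summed to 32.4 CPM (0.889 to 4.35 CPM elsewhere), nearly all of it Pdgfrb (31.8 CPM). The progenitor markers were split: their sum was 3887 CPM (5140 to 7041 CPM elsewhere) and 3 of 10 (Nes, Vim and Fabp7) were at their lowest, while 6 of 10 were at their highest, Sox2 among them. The part of these cell types in the members' values was not tested.

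**Figure D4:**
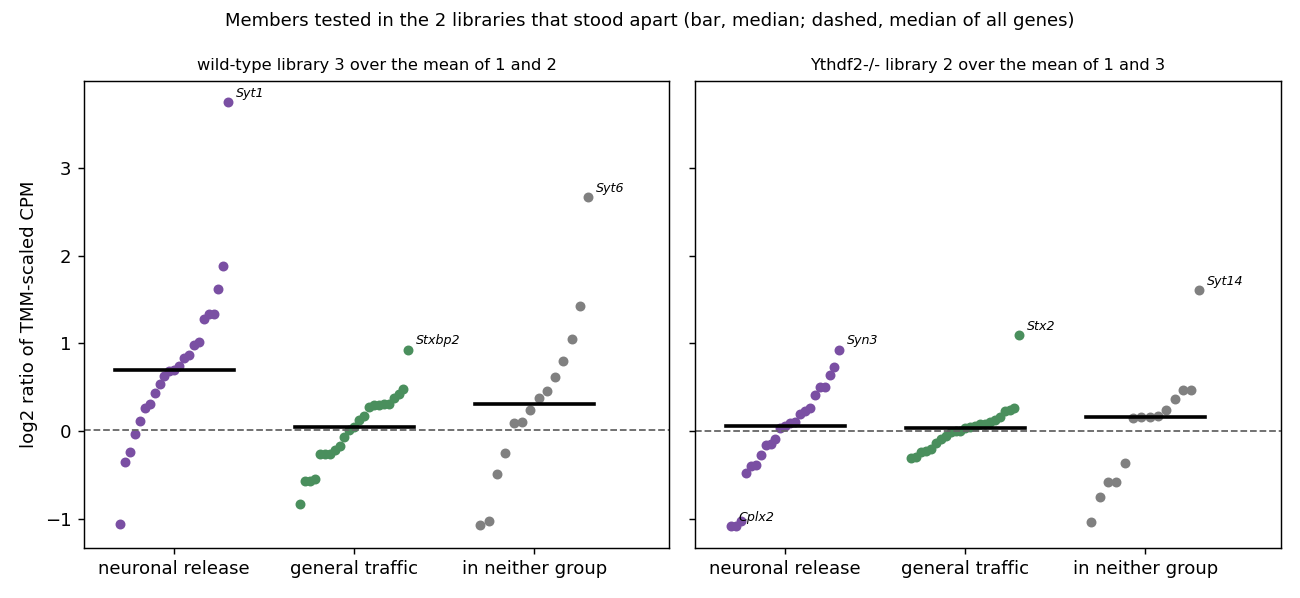
Each point is a member tested, and the vertical axis is the log2 ratio of CPM in wild-type library 3 to the mean of wild-type libraries 1 and 2 (left) or in Ythdf2-/- library 2 to the mean of Ythdf2-/- libraries 1 and 3 (right). The bars are group medians (0.69 for neuronal release and 0.04 for general traffic members on the left) and the dashed line is the median of all genes. Syt1 is the highest point on the left, and Cplx2 and Cplx1 lie at the bottom on the right.

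With wild-type library 3 left out, 62 members could be tested. No member passed an adjusted p of 0.05, as 0.0151% of all genes did, and at an unadjusted p under 0.05 there were 3 higher members (4.84%), where 8.03% of all genes were higher, and 4 lower members (6.45%), where 8.58% were lower. The higher members were Syt9, Stxbp4, a partner of syntaxin-4 (log2 fold change 0.43, SE 0.11) and Syn3 (1.09, SE 0.33), and the lower were Sypl (-0.41, SE 0.10), Stx12 (-0.23, SE 0.09), Stx3 (-0.37, SE 0.13) and Syngr2 (-0.45, SE 0.14). Syn3 was at 10.3, 9.84 and 37.1 CPM in wild type and 15.5, 31.2 and 17.3 CPM in Ythdf2-/-, highest in wild-type library 3 and then in Ythdf2-/- library 2. Syn3 also shares 3198 exonic bases with genes on the opposite strand, Fbxo7 among them, so its count is uncertain. In limma-voom with sample quality weights, which gave wild-type library 3 a weight of 0.0901 and called 5.28% of all genes at an adjusted p under 0.05, 2 of 60 members were called, Syt9 (higher) and Sypl (lower).

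Sypl and Syngr2, the relatives of synaptophysin and synaptogyrin found outside neurons, were lowest in wild-type library 3. Sypl was at 71.5, 74.5 and 49.9 CPM in wild type and 58.2, 51.6 and 55.3 CPM in Ythdf2-/-. Syngr2 was at 27.1, 27.9 and 15.5 CPM against 23.0, 18.3 and 19.0 CPM. For both, the Ythdf2-/- libraries lay between wild-type library 3 and the pair of wild-type libraries 1 and 2. All 5 members of this class had a fold change below 0 with 6 libraries, from -0.69 (Syngr3) to -0.23 (Syngr2), beside 51.9% of all genes. None of the 5 reached an unadjusted p of 0.05. Without wild-type library 3 all 5 were still below 0, with Syngr3 at -0.26. Syp itself, the most abundant protein of the synaptic vesicle membrane, was at 12.8, 15.6 and 20.6 CPM against 12.4, 13.3 and 13.2 CPM.

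Synapsins, which tether vesicles to one another and to actin, were led by Syn2. Syn2 was at 62.3, 64.8 and 68.6 CPM in wild type and 60.7, 88.6 and 64.1 CPM in Ythdf2-/-, with 1 high value in Ythdf2-/- library 2. Syn1, whose promoter held the left part of RE1 and the CRE shown above, was at 11.04, 10.8 and 17.8 CPM against 13.1, 19.8 and 12.3 CPM, and its groups overlapped. Its level was 4.45 RPKM against 20.6 RPKM for Syn2 and 2.34 RPKM for Syn3. Syn2 took 67.7% of the summed synapsin RPKM in wild-type library 3 and 73.1% to 81.1% in the other 5.

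**Figure D5:**
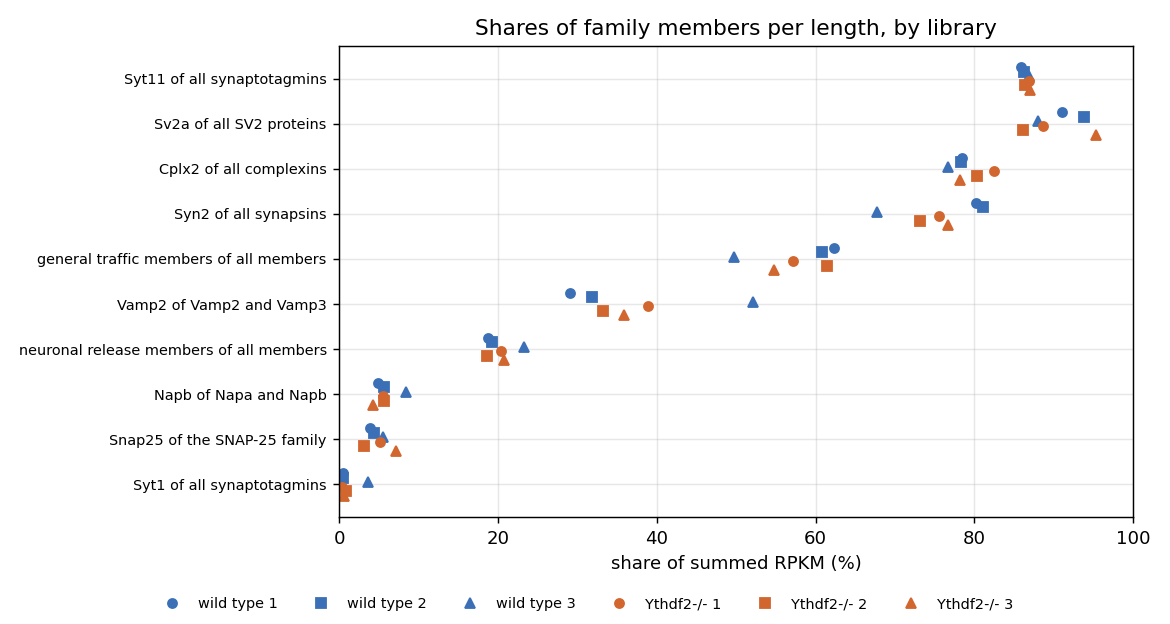
Each row is the share of summed RPKM that a gene or group took within its family, in percent, with 1 symbol per library (blue, wild type; orange, Ythdf2-/-). Syt11 stays between 85.9% and 87.0% of the synaptotagmins, while the share of Vamp2 against Vamp3 is highest in wild-type library 3 (52.1%).

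The 11 members that were not tested had 0 to 31 reads in any library, and 0 to 21 when Sv2b is left out. They were Syt2, Syt5, Syt8, Syt10, Syt13, Sv2b, Vamp8, Cplx3, Cplx4, Stx11 and Stx19. Syt2, which can act as a fast calcium sensor in neurons, and Syt5 did not exceed 0.458 and 0.889 CPM. Syt8 and Cplx4, a complexin of retinal ribbon synapses, had 1 read each in a single library and 0 in the other 5, where a count of 0 allows up to 0.222 to 0.275 CPM (3 reads, counting error only).

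Among 88 other genes of the vesicle cycle and the SNARE machinery that the rule did not take, 78 were tested and their median log2 fold change was -0.05. Of these, 1 was higher at an unadjusted p under 0.05 (1.28%, beside 1.81% of all genes) and 1 was lower (1.28%, beside 1.82%), and none passed the adjusted test. The genotypes lay apart for 3 higher genes (3.85%, beside 5.24% of all genes) and 9 lower ones (11.5%, beside 4.92%). The higher one was Synpr (synaptoporin), a synaptophysin relative on vesicles of mossy fiber and other terminals, at 8.99, 7.86 and 5.40 CPM in wild type and 16.9, 31.8 and 15.5 CPM in Ythdf2-/- (log2 fold change 1.53, SE 0.36, edgeR adjusted p = 0.999). The lower one was Cltb, a clathrin light chain, at 47.5, 44.3 and 53.6 CPM against 35.3, 41.9 and 36.4 CPM (log2 fold change -0.36, SE 0.14, edgeR adjusted p = 0.999). In both, the 3 libraries of one genotype lay to one side of the other. Of the transporters that load glutamate into vesicles, Slc17a6 and Slc17a7 had at most 0.171 CPM in any library, and Slc17a8 was at 0.856 to 1.63 CPM on 10 to 22 reads. The GABA and acetylcholine transporters Slc32a1 and Slc18a3 had at most 0.222 CPM. Of the monoamine transporters, Slc18a1 had at most 0.513 CPM, while Slc18a2 was at 3.94 to 6.68 CPM on 43 to 83 reads.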

How the data were processed

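Input RNA-seq of 3 wild-type and 3 Ythdf2-/- neurosphere samples was analysed, grouped by the genotype and number in the labels. The authors fragmented the mRNA, built libraries with a strand-specific kit (TruSeq Stranded mRNA), aligned reads to mm10 and deposited raw counts per gene, and the submitters' processing notes name Bowtie2 2.2.9, RSEM 1.2.15 and featureCounts without their order. The strand setting of the counting is not given in the sources used here, so genes with exons on the opposite strand to another gene are uncertain. The authors also deposited expected counts with gene lengths in RSEM-style tables. These expected counts came to 1.97% to 2.40% of the raw counts, so only the lengths were used, for RPKM. The study's methods state RPKM from Cuffnorm and, for its statistics in general, Student's test, and a count test was used here because the values are raw counts.

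Counts were tested with edgeR 4.0.16 in R 4.3.3 (filterByExpr, TMM, glmQLFit with the robust option, glmQLFTest, Benjamini-Hochberg adjustment over all 13112 genes tested, genotype as the only term). DESeq2 1.42.0 and limma 3.58.1 (voom, with and without quality weights) were alternatives, as were RLE and upper-quartile scaling, other filters, the replicate block, a term for Y-linked reads and each library left out, 16 in all. Tested on simulated data in which 200 genes had a 4-fold change, edgeR found 99.0% of them at a biological coefficient of variation (BCV) of 0.15 (13003 genes) and 90.5% at a BCV of 0.33 (12969 genes). The common BCV of the data was 0.332. The simulation gave every gene the same BCV and held no library that stood apart. These data hold such a library, so the shares found cannot be carried over to them. For a single gene, 3 against 3 libraries allow an exact permutation p of 0.1 at the least. Tables and figures used Python 3.11.15, pandas 2.3.3 and matplotlib 3.10.9.

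The members and gene lists were chosen with earlier results of these data known. Members were named when they had an unadjusted p under 0.05, when the genotypes did not overlap, when they were among the 2 highest of their class by RPKM, or when 1 library had at least 20 reads and over 3 times the next highest CPM. Snap25, Stx1a, Syn3, Syp, Napb and Stxbp4 were named in addition, after their values were seen, as were members called without wild-type library 3. Some members enter the counts and medians but are not reported here by name. Gene positions (the whole RefSeq gene record, predicted transcripts included) and promoters (at starts of curated transcripts) came from RefSeq on GRCm38.p6, the assembly also called mm10.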

Additional observations from a re-analysis of the deposited data

How the results depend on the processing

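Of 30 members followed over the 16 alternatives, 13 kept the direction of their fold change in every alternative that tested them and 17 did not. Syt3 and Syt4, among the 13, were tested in 15 of the 16. Syt1 was -1.87 with 6 libraries, 0.49 without wild-type library 3 and -2.36 to 0.49 over the libraries left out. With 1 library left out, the log2 fold change spanned 0 for 14 further members, none of which passed the test: -0.39 to 0.24 for Cplx1, -0.047 to 0.44 for Cplx2, -0.050 to 0.070 for Nsf, -0.24 to 0.39 for Rims2, -0.069 to 0.12 for Snap47, -0.42 to 0.23 for Stx2, -0.10 to 0.23 for Stx4a, -0.72 to 0.15 for Sv2c, -0.040 to 0.46 for Syn1, -0.052 to 0.24 for Syn2, -0.23 to 0.24 for Syt11, -0.39 to 0.10 for Syt7, -0.30 to 0.15 for Vamp2 and -0.21 to 0.048 for Vamp3. With the Y-linked term it changed sign for Cplx1 (0.081), Stx2 (-0.16), Vamp3 (0.088). With quality weights it changed sign for Nsf (-0.089), Rims2 (0.56), Stx2 (-0.18), Stx4a (-0.13), Stx7 (0.0041), Stxbp3 (0.0042), Sv2c (0.22), Syt11 (0.24), Vamp2 (0.20). With limma-voom it changed sign for Rims2 (0.039), Stx2 (-0.043). With no filter it changed sign for Rims2 (0.014). Of these, none was past the adjusted threshold before or after. The log2 fold change of Ythdf2 missed an adjusted p of 0.05 with 6 libraries and passed it with DESeq2 (-2.67), RLE scaling (-2.67), upper-quartile scaling (-2.66), at least 10 reads in every library (-2.66), no filter (-2.64), quality weights (-2.61), the term for Y-linked reads (-2.75) and without wild-type library 3 (-2.54). It ranged from -2.78 to -2.54 with 1 library left out, and its adjusted p reached 0.866 there and 0.9999 with the replicate block. Members at an unadjusted p under 0.05 numbered 1 with DESeq2, limma-voom, no filter or at least 10 reads (beside 3.35% to 4.27% of all genes), 6 with the Y-linked term (beside 10.95% of all genes) and 14 with quality weights (beside 29.8%), where 2 passed the adjusted threshold, and 1 to 7 with 1 library left out (beside 1.85% to 16.6%). The count was 1 without Ythdf2-/- library 2 or 3 or wild-type library 1 and 7 without wild-type library 3. Syt9 was among them in all 16. Members with the genotypes apart numbered 9 to 23 with 1 library left out, and the highest count came without wild-type library 3 (14 higher and 9 lower, beside 18.8% and 20.1% of all genes) and the next without Ythdf2-/- library 2 (7 and 7, beside 11% and 11.1%). The lowest came without Ythdf2-/- library 1 (6 and 3, beside 7.64% and 7.69%). The median log2 fold change ranged over libraries left out from -0.12 to 0.090 for all members, -0.32 to 0.15 for neuronal release members (0.17 with quality weights) and -0.050 to -0.0079 for general traffic members (0.018 with no filter, -0.037 with the Y-linked term). Other vesicle cycle genes at an unadjusted p under 0.05 numbered 5 of 78 with DESeq2 (beside 4.27% of all genes), 21 with quality weights, 13 with the Y-linked term and 1 to 10 with 1 library left out, beside the shares of all genes just given. Genes called overall at an adjusted p under 0.05 numbered 0 with 6 libraries, 31 with DESeq2, 13 with the Y-linked term and 692 with quality weights. The cause of these differences was not tested.

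With the replicate block, 2 members (Syt9 and Sv2a) and 1 other vesicle cycle gene were at an unadjusted p under 0.05, beside 1.40% of all genes, no member passed the adjusted threshold and the median of members was -0.05. The fold change changed sign for Rims2 (0.033) and Stx2 (-0.059). Same-numbered libraries deviated in opposite directions (correlations of -0.25, -0.24 and -0.39), and neither the labels nor these values tie the numbers to a shared litter or day. Low counts limit Syt3, Syt4, Syt17 and the 11 members not tested.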

Other observations

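Among 18 further SNAREs and Sec1/Munc18 relatives of general membrane traffic, all were tested, the median log2 fold change was -0.03 and 16 had a 95% interval within 1.5-fold. Among 22 active zone and priming genes, 20 were tested, the median was -0.06, 3 had such an interval and 12 were highest in wild-type library 3. Among 24 genes of vesicle endocytosis, all were tested, the median was -0.06, 11 had such an interval and 10 were highest in that library. Of 24 vesicle transporters and other vesicle proteins, 16 were tested, with a median of 0.01. None of these genes passed an adjusted p of 0.05 in edgeR with 6 libraries.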
